A study of Caenorhabditis elegans with 16 samples.

Results

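The genes described here are the antimicrobial effectors of *C. elegans*, the lysozymes, pore-forming proteins, small peptides and chitinase-like proteins that the animal makes against bacteria, fungi and oomycetes. They were taken by name: rows of the expression table whose gene name begins with *lys-*, *ilys-*, *spp-*, *abf-*, *cnc-*, *fip-*, *fipr-* or *chil-*, or is 1 of the *nlp* genes of the *nlp-29* group. The rule found 90 of 19750 genes, all annotated as protein coding: 8 *lys*, 2 *ilys*, 20 *spp*, 5 *abf*, 7 *cnc*, 3 *fip*, 19 *fipr*, 7 *nlp* and 19 *chil*. RNA was sequenced from whole worms of the wild-type strain N2 on day 1 of adulthood, in pools of about 500 animals. There were 4 groups of 4 samples, *ech-6* RNAi + P-80, *ech-6* RNAi + vehicle, EV + P-80 and EV + vehicle. All worms ate *E. coli* HT115 from the first larval stage, carrying either an *ech-6* RNAi clone or the empty vector (EV), which silences no gene. P-80 is polysorbate 80, a soluble detergent that carries oleic acid, and the vehicle was water. The product of *ech-6* is an enoyl-CoA hydratase, and RNAi by feeding lowers a transcript in many tissues without removing the gene, so no group is a null mutant. No pathogen was added in any group.

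Lysozymes cut the peptidoglycan of bacterial walls, and most of the *lys* and *ilys* genes of the worm are used in the intestine and pharynx. The *spp* genes encode saposin-like proteins. Among them are the caenopores, small helical proteins that insert into bacterial membranes, of which SPP-1 and SPP-5 are known to kill bacteria. The *abf* genes encode defensin-like peptides. The *nlp* peptides of the *nlp-29* cluster and the *cnc* peptides (caenacins) are rich in glycine and are made largely in the epidermis, where fungal infection and wounding induce them, the *nlp* genes through the p38 kinase PMK-1 and *cnc-2* through the TGF-beta ligand DBL-1. The *fip* genes were named as fungus-induced proteins and the *fipr* genes as their relatives in sequence. The *chil* genes encode chitinase-like proteins, several of which oomycete infection induces in the epidermis.

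Total reads on genes ran from 15306307 to 28129104 per sample. The values are CPM (read count scaled to library size, after the authors' TMM scaling), and 63 of the 90 members averaged at least 1 CPM over the 16 samples. Groups were compared on the log2 scale with limma's moderated test in 1 fit of all samples. A gene counts as changed when its p-value, adjusted by Benjamini-Hochberg over all 19750 genes, is under 0.05. The targeted gene was read at 68.3, 66.4, 178 and 71.8 CPM in *ech-6* RNAi + vehicle worms, against 181, 169, 165 and 164 CPM in EV + vehicle worms. The library labelled *ech-6* RNAi + vehicle replicate 3 thus had an *ech-6* level inside the EV range, and counts of calls in comparisons that use it are also given without it. With P-80 the level was 63.1, 68.3, 72.2 and 61 CPM in *ech-6* RNAi worms, against 210.4, 237, 176 and 187 CPM in EV worms. The lists of intestine, epidermis, pharynx, neuron, muscle, germline, sperm and coelomocyte markers had reads for each of their genes in every sample. In whole worms, fewer cells of a type and less RNA per cell cannot be told apart.

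Per length of exon, *spp* and *lys* genes held the highest levels. In EV + vehicle worms *spp-5*, a caenopore gene, stood first at 536 ± 42.2 CPM per kb of exon (SD, n = 4), and the lysozyme gene *lys-1* second at 385 ± 16.3 CPM per kb. Next came *spp-14* at 249 ± 18, *fipr-21* at 217 ± 2.87 and *spp-3* at 156 ± 11.9 CPM per kb. *lys-2* (140 ± 1.13 CPM per kb) and the invertebrate-type lysozyme *ilys-5* (138 ± 8.0 CPM per kb) did not differ beyond their spread. The highest *cnc* gene was *cnc-8* at 73.4 ± 3.98 CPM per kb, and the highest *nlp* gene was *nlp-33* at 47.0 ± 9.44 CPM per kb, which its spread does not separate from *lys-4* at 47.1 ± 4.07 CPM per kb. The 27 members under 1 CPM were 2 *lys*, 4 *spp*, 3 *abf*, 2 *cnc*, 5 *fipr* and 11 *chil* genes, and 11 of them had no read in at least 1 sample. Of these 27 only *lys-5* passed a test in any comparison.

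Of the 90 members, 30 passed the test in at least 1 comparison. With P-80 in EV worms 15 members rose and 10 fell, where 6.97% of all 19750 genes rose and 9.14% fell. With P-80 under *ech-6* RNAi 8 rose and 4 fell, against 2.63% and 4.58% of all genes. With *ech-6* RNAi under vehicle 3 rose and 9 fell, against 1.95% and 0.982% of all genes, and with *ech-6* RNAi under P-80 1 rose and 0 fell, against 0.476% and 0.223%. As shares of the 90 members these calls are 16.7% and 11.1%, then 8.89% and 4.44%, then 3.33% and 10%, then 1.11% and 0%, higher and lower in the same order. The 4 samples of 1 group all lay above or below those of the other for 31.1%, 21.1%, 23.3% and 7.78% of members. Over all genes these shares without overlap were 19%, 11.2%, 13.1% and 4.62%. The median log2 fold change over all members was 0.09, 0.11, -0.12 and -0.04 in the 4 comparisons, beside -0.00, -0.02, 0 and -0.01 over all genes. Both P-80 comparisons use their own vehicle group, but each *ech-6* RNAi comparison shares a group with each P-80 comparison, so the 4 sets of values are not independent. For P-80 in either RNAi background and for *ech-6* RNAi under vehicle, centring every sample on its median over all genes gave 23 higher and 9 lower, 18 higher and 4 lower, and 4 higher and 7 lower members. Over all genes the same centring gave 12% higher and 6.89% lower, 5.23% and 3.83%, and 1.98% and 0.739%, so the balance moved towards higher calls across the whole table in both P-80 comparisons. Without the library labelled *ech-6* RNAi + vehicle replicate 3, P-80 in *ech-6* RNAi worms had 6 higher and 2 lower members, and *ech-6* RNAi under vehicle had 1 higher and 3 lower. Over all genes that fit called 1.55% higher and 2.01% lower, and 1.27% and 0.486%.

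These counts moved with single libraries, and so did those over all genes. Of the 25 calls with P-80 in EV worms 17 held in each of 16 fits that left out 1 library, but 3 of 12 did so for P-80 under *ech-6* RNAi and 2 of 12 with *ech-6* RNAi under vehicle. P-80 in *ech-6* RNAi worms fell to 7 calls without *ech-6* RNAi + vehicle replicate 2 or 4 and to 6 without *ech-6* RNAi + P-80 replicate 1, fits that called 3.11%, 3.64% and 3.23% of all genes, against 7.21% with all libraries. *ech-6* RNAi under vehicle fell to 2 calls without EV + vehicle replicate 1, to 4 without EV + vehicle replicate 4, to 6 without *ech-6* RNAi + vehicle replicate 2 and to 5 without *ech-6* RNAi + vehicle replicate 4. Of all genes these fits called 1.05%, 1.16%, 1.67% and 1.34%, against 2.94% with all libraries. *ech-6* RNAi under P-80 had 3 calls without EV + vehicle replicate 1, EV + P-80 replicate 4 or *ech-6* RNAi + P-80 replicate 3, and 2 without *ech-6* RNAi + P-80 replicate 1, where 0.699%, 1.59%, 0.972% and 0.815% of all genes were called, against 0.699% with all libraries. The single call of that comparison, *spp-1*, held in all 16 fits.

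A fit with no mean-variance trend in its error model also called fewer genes. For *ech-6* RNAi under vehicle it called 2 members and 1.12% of all genes, leaving *cnc-2* and *cnc-4*, and the calls of *fipr-1*, *fipr-11*, *fipr-13*, *cnc-3*, *nlp-30*, *nlp-31*, *nlp-34*, *spp-17*, *lys-4* and *chil-13* were lost (adjusted p 0.0545 to 0.146). For P-80 under *ech-6* RNAi it called 4 members and 2.27% of all genes, and lost *fipr-7*, *cnc-3*, *nlp-27*, *fip-6*, *spp-13*, *spp-17*, *lys-4* and *lys-5* (adjusted p 0.0559 to 0.106). For P-80 in EV worms it lost *spp-4*, *spp-15* and *nlp-34* (adjusted p 0.071, 0.0719 and 0.0804).

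**Figure D1:**
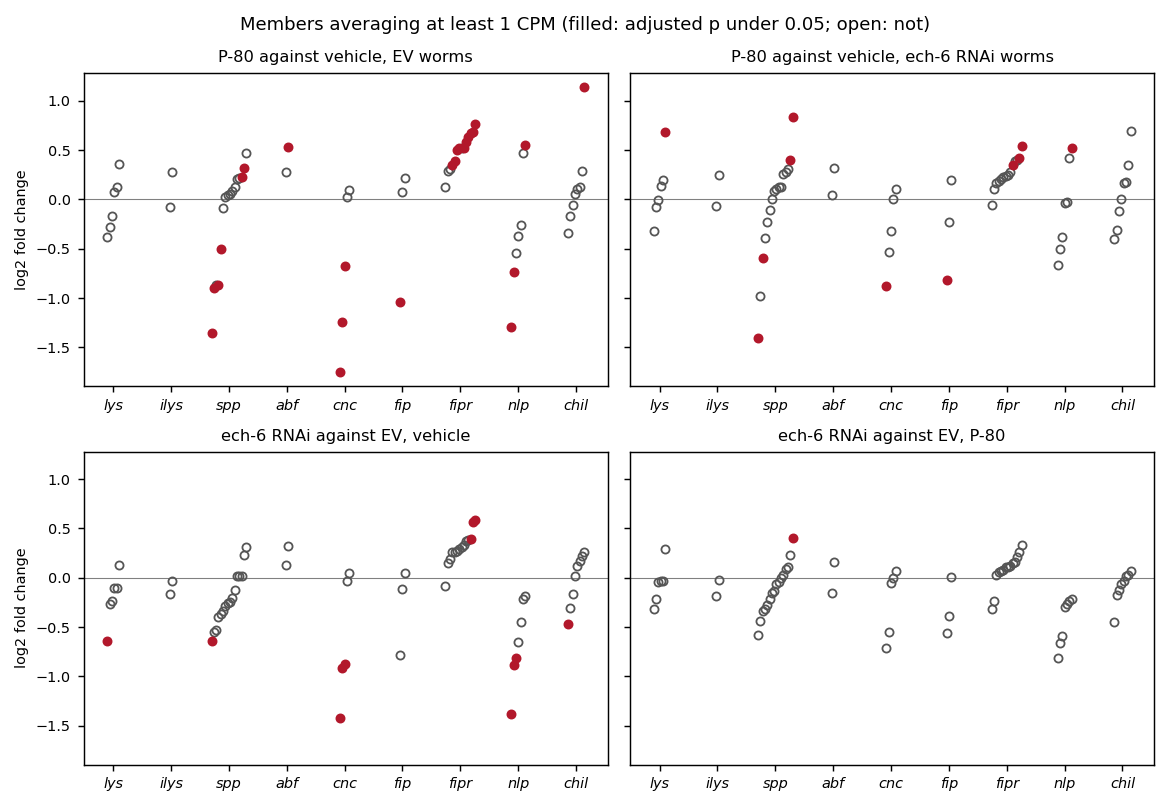
Log2 fold changes of the 63 members averaging at least 1 CPM, by gene family, in 4 comparisons. Each point is 1 gene, filled where the adjusted p is under 0.05. The 10 filled *fipr* points with P-80 in EV worms are all above 0, and the 3 filled *cnc* points are all below it.

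More *fipr* genes rose with P-80 than genes of any other family. In EV worms 10 of 19 rose and 0 fell, where 6.97% of all genes rose and 9.14% fell. The 10 were *fipr-1*, *fipr-2*, *fipr-3*, *fipr-4*, *fipr-5*, *fipr-7*, *fipr-10*, *fipr-11*, *fipr-13* and *fipr-22*. Their changes were modest, and the 14 *fipr* genes averaging at least 1 CPM had log2 fold changes from 0.13 to 0.76 with a median of 0.52, which is also the median over all 19. The median of the 14 was 0.56 after quantile normalization and 0.61 after centring. Summed over the 19 genes the family reached 272 ± 18.9 CPM in EV + P-80 worms and 209 ± 17.4 CPM in EV + vehicle worms (SD, n = 4 each).

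*fipr-2* had 21.5, 21.5, 19.3 and 24.9 CPM in EV + P-80 worms, against 12.2, 14.8, 14.6 and 12.5 CPM in EV + vehicle worms. The groups do not overlap, and the log2 fold change was 0.69 ± 0.0966 (SE), adjusted p = 1.32e-04. *fipr-13* had 10.9, 11.5, 9.35 and 13.1 CPM in EV + P-80 worms, against 5.21, 7.51, 7.48 and 6.33 CPM in EV + vehicle worms. The highest vehicle sample again lay below the lowest P-80 sample (0.76 ± 0.125, adjusted p = 5.18e-04). For *fipr-1* the values were 11.6, 13.6, 10.5 and 14.3 CPM in EV + P-80 worms, against 6.38, 9.31, 8.69 and 8.0 CPM in EV + vehicle worms, also apart (0.63 ± 0.120, adjusted p = 0.00159). *fipr-22* had 8.02, 6.84, 7.8 and 8.13 CPM in EV + P-80 worms, against 4.75, 4.37, 5.98 and 4.3 CPM in EV + vehicle worms (0.67 ± 0.160, adjusted p = 0.00675). *fipr-22* lies beside *fipr-23* on chromosome I, and whether reads are shared between them was not tested. The change of *fipr-5* was 0.50 ± 0.145, adjusted p = 0.0226, and its groups overlapped. The *fipr-5* call was lost without EV + vehicle replicate 1 or 4 or EV + P-80 replicate 1 or 4 (adjusted p up to 0.087), and the other 9 held without any 1 library. *fipr-21*, the most abundant of the family, had 81.7, 80.8, 72.1 and 87.7 CPM in EV + P-80 worms, against 72.8, 73.2, 75.1 and 73.5 CPM in EV + vehicle worms, and did not pass the test (0.13 ± 0.0783, adjusted p = 0.314).

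Under *ech-6* RNAi, P-80 raised *fipr-2*, *fipr-3* and *fipr-7*, where 2.63% of all genes rose. *fipr-2* had 26.5, 22.3, 21.6 and 26.3 CPM in *ech-6* RNAi + P-80 worms, against 17.2, 15.6, 18.4 and 15 CPM in *ech-6* RNAi + vehicle worms, with no overlap (0.54 ± 0.0966, adjusted p = 0.00264). *fipr-3* gave 0.35 ± 0.0805, adjusted p = 0.0138 and *fipr-7* 0.42 ± 0.102, adjusted p = 0.0164, also without overlap. Without the library labelled *ech-6* RNAi + vehicle replicate 3 all 3 calls stood (adjusted p 0.00373, 0.0286 and 0.0412), whereas those of *fipr-3* and *fipr-7* were lost without *ech-6* RNAi + vehicle replicate 2 or *ech-6* RNAi + P-80 replicate 1 (adjusted p up to 0.0645). The *fipr* sums were 286 ± 17 CPM in *ech-6* RNAi + P-80 worms and 238 ± 13.2 CPM in *ech-6* RNAi + vehicle worms.

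*ech-6* RNAi under vehicle also raised 3 of the 19 *fipr* genes, where 1.95% of all genes rose. *fipr-1* had 13.5, 10.1, 12.4 and 11.7 CPM in *ech-6* RNAi + vehicle worms, all above the 6.38, 9.31, 8.69 and 8.0 CPM of EV + vehicle worms (0.56 ± 0.120, adjusted p = 0.014). *fipr-13* gave 0.58 ± 0.125, adjusted p = 0.0142 and *fipr-11* 0.40 ± 0.0956, adjusted p = 0.0293. Each of the 3 calls was lost without EV + vehicle replicate 1, which had the lowest value of all 16 samples for each of the 3 genes (adjusted p 0.0658 for *fipr-1*, 0.0682 for *fipr-13* and 0.131 for *fipr-11*). Without the library labelled *ech-6* RNAi + vehicle replicate 3, *fipr-1* kept its call (adjusted p 0.0456), but *fipr-13* (0.0562) and *fipr-11* (0.0904) did not. Leaving out EV + vehicle replicate 4 also ended the calls of *fipr-13* and *fipr-11*, and leaving out *ech-6* RNAi + vehicle replicate 1 or 4 that of *fipr-11*. With P-80 in both groups 0 *fipr* genes passed the test for *ech-6* RNAi against EV, where only 0.699% of all genes did. Of the 14 *fipr* genes averaging at least 1 CPM, 12 had positive and 2 negative fold changes there.

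**Figure D2:**
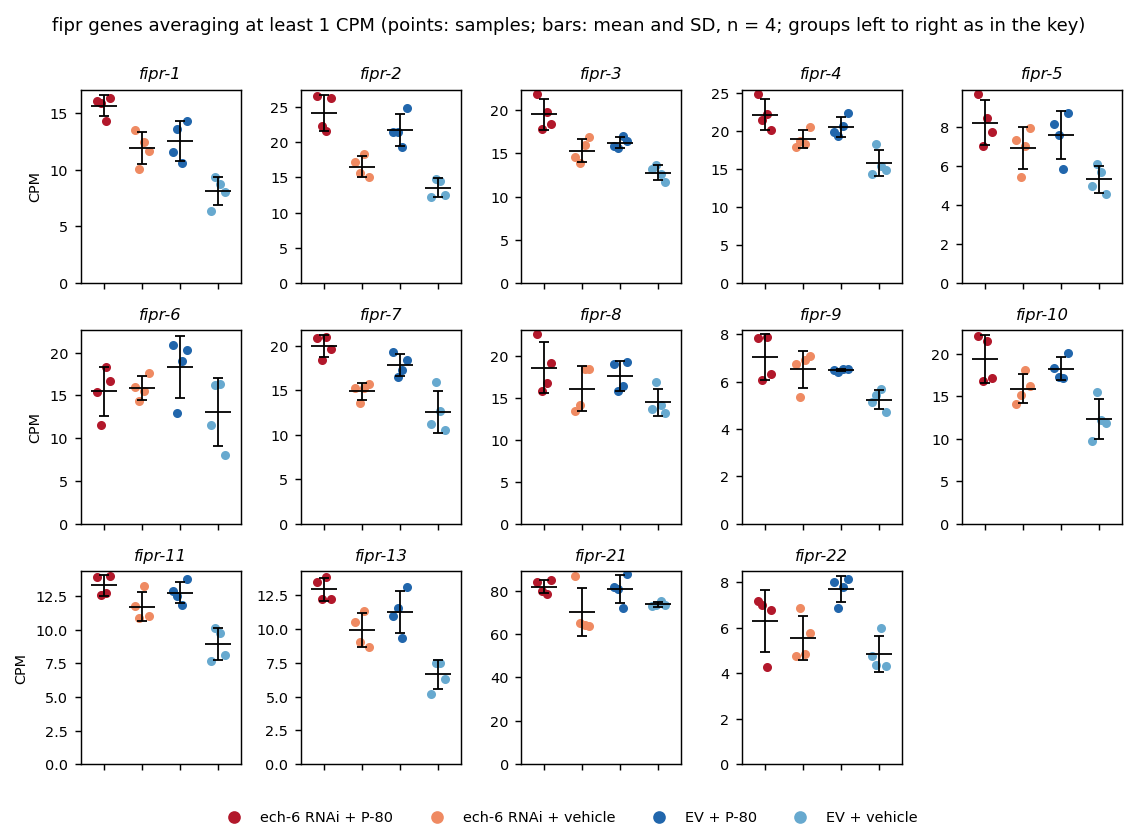
CPM of the 14 *fipr* genes averaging at least 1 CPM in each sample, with the mean and SD of 4 samples. EV + vehicle samples are the lowest group for genes such as *fipr-1*, *fipr-2* and *fipr-13*, and *fipr-21*, the most abundant, lies between 63.7 and 87.7 CPM.

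The family lies mostly in groups on chromosome V of WBcel235. *fipr-5*, *fipr-9*, *fipr-4*, *fipr-7*, *fipr-6* and *fipr-8* share a stretch of 19 kb (10220981 to 10239961), in which 3 of 6 rose with P-80 in EV worms. The pair *fipr-1* and *fipr-2* (12361301 to 12365869) and the pair *fipr-11* and *fipr-10* (9905853 to 9914529) rose whole in that comparison. *fipr-1*, *fipr-2*, *fipr-3*, *fipr-10* and *fipr-11* lie opposite another gene on the other strand, which the stranded counting keeps apart.

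The epidermal peptide genes *cnc-2*, *cnc-3* and *cnc-4* fell with P-80 in EV worms, and they also fell with *ech-6* RNAi under vehicle. They stand side by side on chromosome V (1447195 to 1450183) and were the 3 called *cnc* genes of 7. Of all genes 9.14% fell with P-80 in EV worms and 0.982% with *ech-6* RNAi under vehicle. *cnc-3* had 1.59, 1.72, 1.68 and 0.963 CPM in EV + P-80 worms, against 6.06, 4.08, 3.78 and 6.27 CPM in EV + vehicle worms. The ranges are far apart, and the log2 fold change was -1.75 ± 0.227, adjusted p = 6.32e-05, the lowest of any member averaging at least 1 CPM in that comparison. *cnc-2*, the target of DBL-1 signalling, had 4.53, 3.4, 5.01 and 2.84 CPM in EV + P-80 worms, against 9.57, 8.12, 8.18 and 10.9 CPM in EV + vehicle worms (-1.24 ± 0.214, adjusted p = 7.86e-04). *cnc-4* had 12.1, 13, 16.4 and 12.2 CPM in EV + P-80 worms, against 26.8, 18.7, 18.3 and 22.6 CPM in EV + vehicle worms (-0.68 ± 0.135, adjusted p = 0.0022). None of the 3 pairs of groups overlapped, as was so for 19% of all genes with P-80 in EV worms. The 3 calls held without any 1 library. *cnc-8*, on chromosome X and the most abundant of the family, had 23.4, 24.1, 26.9 and 24.2 CPM in EV + P-80 worms, against 24.6, 23.8, 22.2 and 22 CPM in EV + vehicle worms, which overlap (0.09 ± 0.0820, adjusted p = 0.512).

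Under vehicle, *cnc-2* had 3.81, 4.21, 2.65 and 3.18 CPM in *ech-6* RNAi worms, all under the EV + vehicle values above (-1.42 ± 0.214, adjusted p = 8.95e-04). *cnc-4* had 11, 11.8, 12.7 and 10.1 CPM in *ech-6* RNAi + vehicle worms, also below every EV + vehicle sample (-0.91 ± 0.135, adjusted p = 7.38e-04). Both calls held without any 1 library, and without the library labelled *ech-6* RNAi + vehicle replicate 3 their adjusted p was 0.00451 for *cnc-2* and 0.00146 for *cnc-4*. *cnc-3* had 2.65, 2.6, 2.59 and 2.85 CPM in *ech-6* RNAi + vehicle worms (-0.88 ± 0.227, adjusted p = 0.0418). That call was lost without any 1 *ech-6* RNAi + vehicle library (adjusted p 0.0892 without replicate 3), without EV + vehicle replicate 1 or 4, or without EV + P-80 replicate 1 (adjusted p up to 0.172). P-80 lowered *cnc-3* in *ech-6* RNAi worms too, with 1.3, 1.35, 2.17 and 1.15 CPM in *ech-6* RNAi + P-80 worms below every *ech-6* RNAi + vehicle sample (-0.88 ± 0.227, adjusted p = 0.0242). This last call was lost without *ech-6* RNAi + vehicle replicate 2, 3 or 4 or *ech-6* RNAi + P-80 replicate 1, 2 or 4 (adjusted p up to 0.0808, and 0.0577 without vehicle replicate 3). *cnc-2* and *cnc-4* did not pass in that comparison (-0.53 ± 0.214, adjusted p = 0.159 and -0.32 ± 0.135, adjusted p = 0.188). For *cnc-2* the 2 P-80 groups had 2.54, 1.85, 3.55 and 1.83 CPM with *ech-6* RNAi, against 4.53, 3.4, 5.01 and 2.84 CPM with EV, which overlap (-0.71 ± 0.214, adjusted p = 0.175), and a call appeared there only without *ech-6* RNAi + P-80 replicate 3 (adjusted p 0.0358).

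The *nlp-29* cluster on chromosome V (3978825 to 3989770) did not move as a block. With P-80 in EV worms *nlp-30* and *nlp-34*, in the left part of the cluster, fell, and *nlp-27*, at its right end, rose. *nlp-30* had 1.16, 1.41, 2.92 and 1.28 CPM in EV + P-80 worms, against 6.78, 2.8, 3.37 and 3.58 CPM in EV + vehicle worms. The highest P-80 sample reached above the lowest vehicle sample, and the vehicle mean is raised by replicate 1, without which the call was lost (-1.30 ± 0.330, adjusted p = 0.0107, and adjusted p 0.0535 without that library). *nlp-34* had 5.2, 3.31, 4.65 and 3.75 CPM in EV + P-80 worms, against 8.92, 5.32, 6.89 and 7.1 CPM in EV + vehicle worms, ranges that nearly meet (-0.74 ± 0.232, adjusted p = 0.0361). Its call was lost without EV + vehicle replicate 1, 3 or 4 or EV + P-80 replicate 2 or 4 (adjusted p up to 0.13). *nlp-27* had 18.7, 16.2, 16.3 and 23.5 CPM in EV + P-80 worms, against 13, 13.1, 13.8 and 10.4 CPM in EV + vehicle worms, with no overlap (0.56 ± 0.148, adjusted p = 0.0139). Its call was lost without EV + vehicle replicate 4 or EV + P-80 replicate 4 (adjusted p up to 0.0626). *nlp-28*, next to *nlp-27*, and *nlp-29*, the gene most used as a reporter of fungal infection, did not pass, with log2 fold changes of 0.47 ± 0.180 (SE, adjusted p = 0.0861) and -0.26 ± 0.132 (SE, adjusted p = 0.211).

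Upon knockdown of *ech-6* under vehicle, *nlp-30*, *nlp-31* and *nlp-34* fell, and the other 4 *nlp* genes had negative fold changes that did not pass. *nlp-31* had 4.69, 3.52, 2.65 and 2.34 CPM in *ech-6* RNAi + vehicle worms, against 6.19, 4.51, 5.83 and 6.09 CPM in EV + vehicle worms, overlapping in *ech-6* RNAi replicate 1 (-0.82 ± 0.185, adjusted p = 0.0204). *nlp-30* had 2.29, 1.12, 1.27 and 1.51 CPM in *ech-6* RNAi + vehicle worms, below all 4 EV + vehicle samples (-1.38 ± 0.330, adjusted p = 0.029). *nlp-34* had 3.39, 4.68, 3.74 and 3.35 CPM in *ech-6* RNAi + vehicle worms, again below them (-0.88 ± 0.232, adjusted p = 0.0447). Without the library labelled *ech-6* RNAi + vehicle replicate 3 the 3 adjusted p-values were 0.0679 for *nlp-31*, 0.0766 for *nlp-30* and 0.0902 for *nlp-34*. All 3 calls were also lost without EV + vehicle replicate 1 or 4 or *ech-6* RNAi + vehicle replicate 4, with adjusted p up to 0.185. The call of *nlp-30* was further lost without *ech-6* RNAi + vehicle replicate 2, that of *nlp-31* without EV + vehicle replicate 3, and that of *nlp-34* without 5 more libraries.

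P-80 in *ech-6* RNAi worms raised *nlp-27*, with 16.1, 13.8, 15.6 and 18.2 CPM in *ech-6* RNAi + P-80 worms, against 15.5, 10.2, 9.21 and 10.1 CPM in *ech-6* RNAi + vehicle worms. Vehicle replicate 1 overlapped the P-80 samples (0.53 ± 0.148, adjusted p = 0.0362), and the call was lost without the library labelled *ech-6* RNAi + vehicle replicate 3 (adjusted p 0.128), without vehicle replicate 2 or 4, or without P-80 replicate 1 or 4. *nlp-33*, on the same chromosome but outside the cluster, passed in no comparison.

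**Figure D3:**
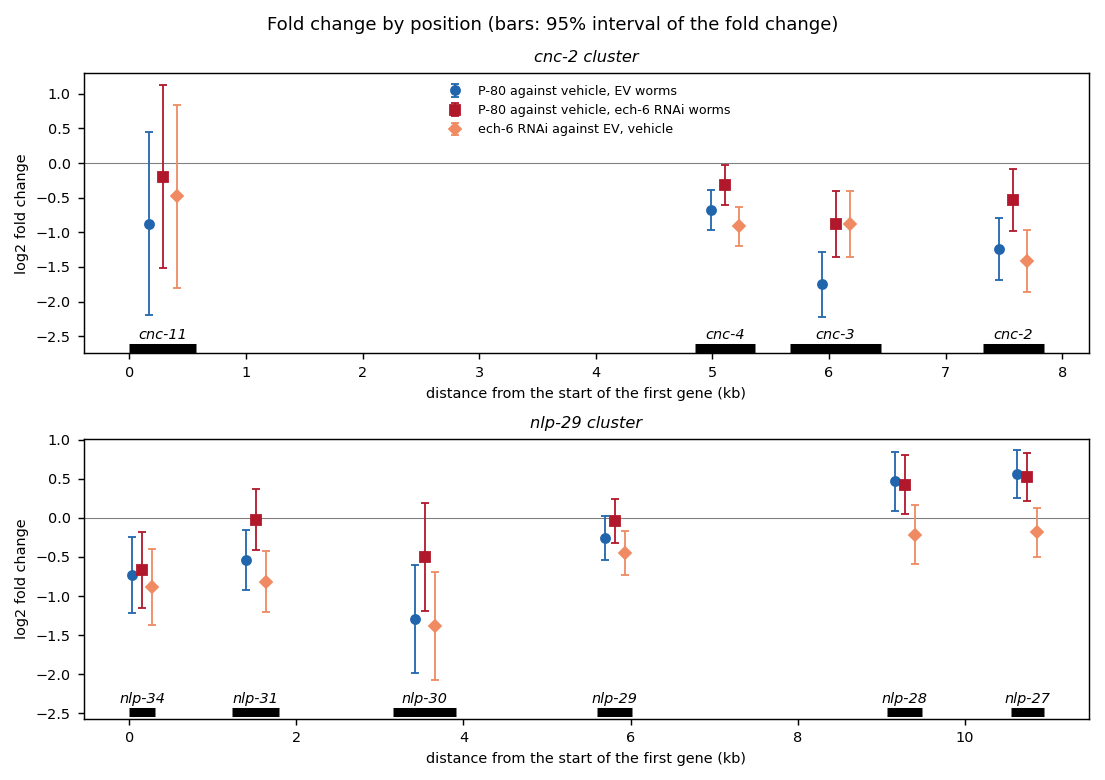
Log2 fold changes with 95% intervals of the genes of the *cnc-2* cluster (above) and the *nlp-29* cluster (below), placed by distance in kb from the start of the first gene, with black bars for the genes. In the *nlp-29* cluster the P-80 estimates in EV worms lie below 0 from *nlp-34* to *nlp-29* and above 0 at *nlp-28* and *nlp-27*; the interval of *nlp-29* reaches 0.

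*fip-6*, a fungus-induced gene on chromosome I, fell with P-80 in both backgrounds. It had 4.9, 4.33, 6.07 and 2.78 CPM in EV + P-80 worms, against 12.1, 6.7, 7.7 and 10.4 CPM in EV + vehicle worms, without overlap (-1.04 ± 0.232, adjusted p = 0.0046), and this call held without any 1 library. In *ech-6* RNAi worms it had 2.97, 2.43, 4.29 and 2.41 CPM with P-80, against 4.02, 5.73, 5.76 and 5.53 CPM with vehicle (-0.82 ± 0.232, adjusted p = 0.0368). P-80 replicate 3 lay just above the lowest vehicle sample, and the call was lost without vehicle replicate 2, 3 or 4 or P-80 replicate 1, 2 or 4 (adjusted p up to 0.114, and 0.103 without the library labelled *ech-6* RNAi + vehicle replicate 3). *fip-2* and *fip-5* passed in no comparison.

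Genes of molting and the cuticle moved in the same samples. A list of 14 of them held genes such as *mlt-10*, *noah-1* and *dpy-7*, which build or shed the cuticle. All 14 fell with P-80 in EV worms, where 9.14% of all genes fell. That count was 12 to 14 with 1 library left out, and the calls of *nas-37* and *nhr-23* were lost without any 1 of 8 and 4 libraries. With P-80 under *ech-6* RNAi 12 of 14 fell, where 4.58% of all genes fell. Under *ech-6* RNAi that count was 3 without the library labelled *ech-6* RNAi + vehicle replicate 3 or without *ech-6* RNAi + P-80 replicate 4, 5 without vehicle replicate 4, and 4 without vehicle replicate 2 or P-80 replicate 1 or 2. Calls over all genes dropped as well, to 1.77%, 2.01% and 2.14% lower without vehicle replicate 2, 3 and 4. 0 of 14 passed in either *ech-6* RNAi comparison, where only 0.982% of all genes fell under vehicle and 0.223% under P-80. Without EV + P-80 replicate 4, though, 7 were called lower under vehicle and 1 under P-80, where 1.79% and 1.05% of all genes were. The median log2 fold changes of the 14 were -0.71 under vehicle and -0.27 under P-80. Their summed level was 292 to 609 CPM in *ech-6* RNAi + P-80 worms (median 331), 735 to 838 CPM in *ech-6* RNAi + vehicle worms (median 784), 239 to 669 CPM in EV + P-80 worms (median 549) and 988 to 1627 CPM in EV + vehicle worms (median 1323). *col-19*, a collagen gene of the adult cuticle, rose with P-80 in EV worms (log2 fold change 0.53), and with *ech-6* RNAi under vehicle (log2 fold change 0.41). Within EV + vehicle worms, replicates 1 and 4 had the highest molting sums (1555 and 1627 CPM), the highest sums of *cnc-2*, *cnc-3* and *cnc-4* (42.4 and 39.8 CPM) and the lowest *fipr* sums (194.5 and 195.2 CPM). EV + P-80 replicate 4 had the lowest molting sum of all 16 samples (239 CPM), the lowest sum of the 3 *cnc* genes among EV + P-80 samples (16.0 CPM) and its group's highest *fipr* sum (296 CPM). Other samples did not follow that order. *ech-6* RNAi + P-80 replicate 2 had its group's lowest molting sum (291.5 CPM) and also its lowest *fipr* sum (267 CPM), and EV + P-80 replicate 4 had its group's second-highest sum of *nlp-29*, *nlp-30*, *nlp-31* and *nlp-34* (17.2 CPM). The sums of the 3 *cnc* genes were 16.1 to 18.6 CPM in *ech-6* RNAi + vehicle worms and 16.0 to 23.1 CPM in EV + P-80 worms, while the molting sums of the *ech-6* RNAi + vehicle worms were all the higher. Developmental stage was not scored in these samples, and the part of stage in the changes of the *cnc*, *nlp*, *fip*, *fipr* and *spp* genes was not tested.

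**Figure D4:**
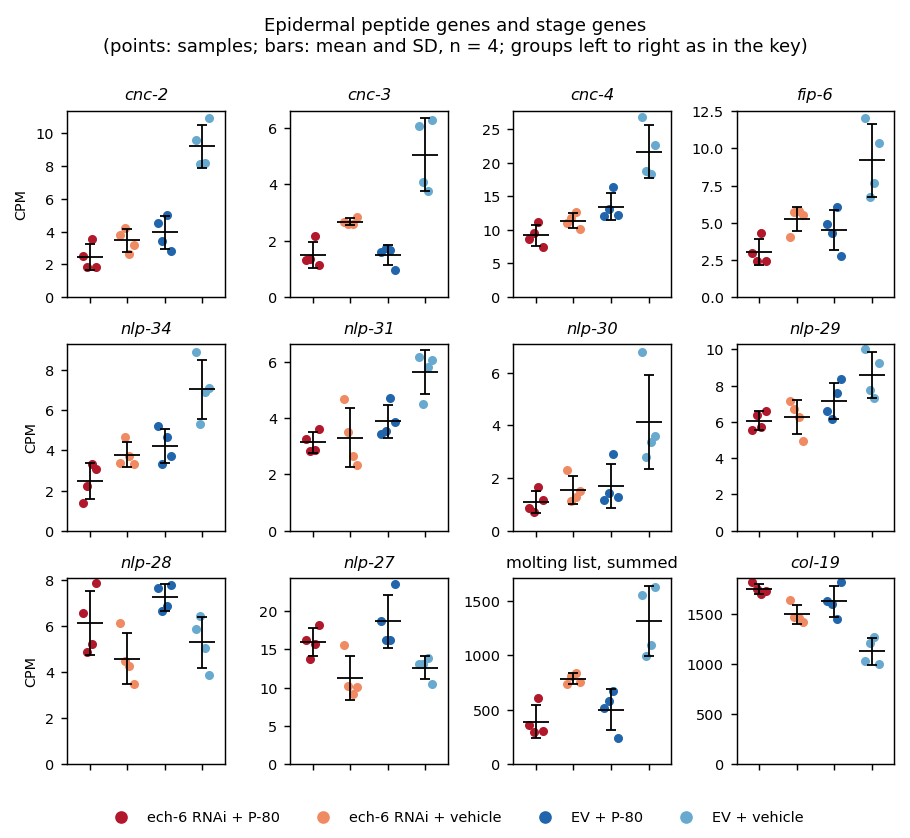
CPM of *cnc*, *fip* and *nlp* genes, the summed CPM of the 14 molting and cuticle genes, and CPM of *col-19* in each sample, with the mean and SD of 4 samples. EV + vehicle is the highest group for *cnc-2*, *cnc-3*, *cnc-4* and the molting sum and the lowest for *col-19*, and EV + P-80 is the highest for *nlp-27* and *nlp-28*.

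Among the *spp* genes 2 rose and 4 fell of 20 with P-80 in EV worms, where 6.97% of all genes rose and 9.14% fell. *spp-13* had 6.73, 5.83, 7.8 and 2.14 CPM in EV + P-80 worms, against 14.5, 9.93, 11 and 17.9 CPM in EV + vehicle worms, with every P-80 sample the lower (-1.36 ± 0.317, adjusted p = 0.00614). Another annotated gene overlaps *spp-13* on the same strand, which stranded counting does not keep apart, and its part in the reads of *spp-13* was not tested. *spp-17* had 17.9, 15.6, 17.1 and 18 CPM in EV + P-80 worms, against 37.8, 32.2, 28 and 30.3 CPM in EV + vehicle worms, also apart (-0.89 ± 0.137, adjusted p = 3.16e-04). *spp-2* had 5.02, 3.27, 5.23 and 4.01 CPM in EV + P-80 worms, against 10.5, 6.98, 7.37 and 7.1 CPM in EV + vehicle worms, without overlap (-0.87 ± 0.192, adjusted p = 0.00446). These 3 calls held without any 1 library. *spp-4*, a neighbour of *spp-2* on chromosome X, gave -0.50 ± 0.156, adjusted p = 0.0324, and its call was lost without any 1 EV + vehicle library or without EV + P-80 replicate 2 or 4 (adjusted p up to 0.116). *spp-5* of the same cluster, the highest member per kb of exon, had 221, 194, 207 and 200.3 CPM in EV + P-80 worms, against 220.1, 196, 194 and 183 CPM in EV + vehicle worms (0.05 ± 0.0883, adjusted p = 0.75).

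*spp-1*, whose product kills bacteria, rose with P-80 in both backgrounds and was the only member called between the *ech-6* RNAi and EV groups under P-80. It had 44.9, 45.2, 47.5 and 47 CPM in *ech-6* RNAi + P-80 worms, 38.2, 35, 35 and 31.5 CPM in *ech-6* RNAi + vehicle worms, 38.9, 33.3, 33 and 34.2 CPM in EV + P-80 worms and 31.2, 28.7, 27.5 and 31.1 CPM in EV + vehicle worms. No P-80 sample overlapped its own vehicle group, and no *ech-6* RNAi sample overlapped EV under the same diet. With P-80 its log2 fold change was 0.40 ± 0.0662, adjusted p = 0.00137 in *ech-6* RNAi worms and 0.23 ± 0.0662, adjusted p = 0.021 in EV worms. With *ech-6* RNAi it was 0.41 ± 0.0662, adjusted p = 0.00328 under P-80 and 0.24 ± 0.0662, adjusted p = 0.0608 under vehicle, which did not pass. The EV call was lost without EV + vehicle replicate 3 (adjusted p 0.0714) or EV + P-80 replicate 1 (0.0826), and the other 2 held without any 1 library. A gene on the other strand overlaps *spp-1*, which the stranded counting keeps apart.

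With P-80 under *ech-6* RNAi *spp-23* rose and *spp-13* and *spp-17* fell, where 2.63% of all genes rose and 4.58% fell. *spp-23* had 13.4, 10.4, 9.9 and 10.6 CPM in *ech-6* RNAi + P-80 worms, all above the 8.61, 5.89, 4.95 and 5.64 CPM of *ech-6* RNAi + vehicle worms (0.84 ± 0.169, adjusted p = 0.0059), and this held without any 1 library (adjusted p 0.0286 without vehicle replicate 3). *spp-23* and *spp-17* are neighbours on chromosome I (1016405 to 1019157) and moved in opposite directions. *spp-13* had 2.29, 3.38, 5.72 and 2.98 CPM in *ech-6* RNAi + P-80 worms, against 8.18, 8.29, 8.98 and 10.7 CPM in *ech-6* RNAi + vehicle worms, without overlap (-1.40 ± 0.317, adjusted p = 0.0119). *spp-17* had 17.1, 10.9, 13 and 14.2 CPM with P-80, against 27.4, 19.1, 20.0 and 16.7 CPM with vehicle, overlapping in 1 P-80 sample (-0.59 ± 0.137, adjusted p = 0.014). The *spp-13* call was lost without P-80 replicate 1 (adjusted p 0.0527) and the *spp-17* call without P-80 replicate 2 (0.0565), and both stood without the library labelled *ech-6* RNAi + vehicle replicate 3 (0.0367 and 0.0384). *spp-17* also fell with *ech-6* RNAi under vehicle (-0.64 ± 0.137, adjusted p = 0.0146), without overlap, and this call was lost without EV + vehicle replicate 1 or *ech-6* RNAi + vehicle replicate 2 or 4 (adjusted p up to 0.075) but not without replicate 3 (0.045). *spp-15* rose with P-80 in EV worms (0.32 ± 0.104, adjusted p = 0.0432), with EV + P-80 values of 14.8, 11.7, 13.4 and 14.3 CPM and EV + vehicle values of 10.3, 10.4, 11.4 and 11.2 CPM, but the call was lost without any 1 of 10 libraries, with adjusted p up to 0.125. *spp-7*, which passed in no comparison, had 0.928, 2.21, 1.66 and 1.38 CPM in *ech-6* RNAi + P-80 worms, below the 2.36, 3.52, 3.05 and 2.85 CPM of *ech-6* RNAi + vehicle worms (-0.98 ± 0.317, adjusted p = 0.0688), and passed there with sample quality weights (adjusted p 0.0327) or when only those groups were fitted (0.0247).

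**Figure D5:**
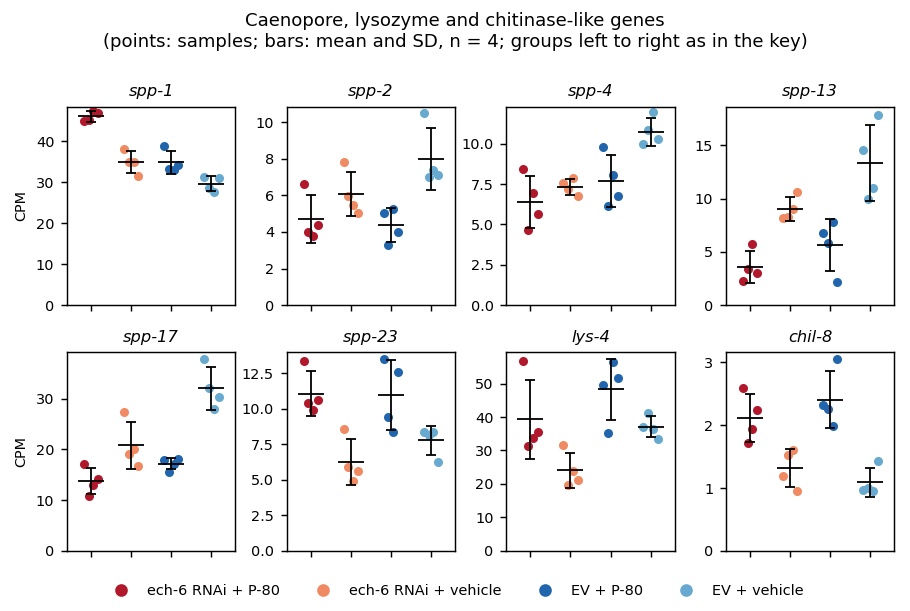
CPM of 6 *spp* genes, *lys-4* and *chil-8* in each sample, with the mean and SD of 4 samples. *spp-1* is highest in *ech-6* RNAi + P-80 worms and lowest in EV + vehicle worms, and *spp-13* and *spp-17* are highest in EV + vehicle worms.

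Of the lysozyme genes only *lys-4* and *lys-5* passed in any comparison, although several were abundant. 0 of 8 *lys* and 0 of 2 *ilys* genes passed with P-80 in EV worms, where 16.1% of all genes did. With P-80 under *ech-6* RNAi 2 *lys* genes rose, where 2.63% of all genes rose. With *ech-6* RNAi under vehicle 1 *lys* gene fell, where 0.982% of all genes fell. *lys-1* had 447, 368, 397 and 406 CPM in EV + P-80 worms, against 371, 383, 377 and 347 CPM in EV + vehicle worms, which overlap (0.13 ± 0.0631, adjusted p = 0.191). *ilys-5* had 236, 192, 200.3 and 232 CPM in EV + P-80 worms, all above the 185, 186, 174 and 164 CPM of EV + vehicle worms, without passing the test (0.27 ± 0.0995, adjusted p = 0.0687). *ilys-4*, the other gene of that type, had 4.47, 4.59, 5.41 and 6.05 CPM in EV + P-80 worms, against 4.88, 4.51, 6.23 and 6.03 CPM in EV + vehicle worms, which overlap (-0.08 ± 0.171, adjusted p = 0.822). *lys-4* had 56.7, 31.3, 33.8 and 35.5 CPM in *ech-6* RNAi + P-80 worms, 31.6, 19.6, 23.9 and 21.3 CPM in *ech-6* RNAi + vehicle worms and 37.1, 41.3, 36.5 and 33.5 CPM in EV + vehicle worms. It rose with P-80 (0.69 ± 0.170, adjusted p = 0.0187), though 1 P-80 sample lay below the highest vehicle sample, and it fell with *ech-6* RNAi under vehicle, without overlap (-0.64 ± 0.170, adjusted p = 0.0457). The first call was lost without vehicle replicate 2, 3 or 4 or P-80 replicate 1 (adjusted p up to 0.0744, and 0.0513 without the library labelled *ech-6* RNAi + vehicle replicate 3). The other was lost without any 1 of 9 libraries, among them all 4 EV + vehicle libraries (adjusted p up to 0.132, and 0.0898 without that library). *lys-5*, its neighbour on chromosome IV, was also called higher with P-80 under *ech-6* RNAi (2.78 ± 0.731, adjusted p = 0.0262). It had 0 to 11 reads in any library and 0.124, 0.451, 0.229 and 0.573 CPM in *ech-6* RNAi + P-80 worms, against 0.0353, 0.0401, 0.115 and 0 CPM in *ech-6* RNAi + vehicle worms. At this depth its fitted fold change depends on the small constant added before the log, and the call was lost without vehicle replicate 2 or 4 or P-80 replicate 2 or 4 (adjusted p up to 0.0895).

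Among the defensin-like genes *abf-5* rose with P-80 in EV worms, at 5.57, 5.34, 4.34 and 6.1 CPM in EV + P-80 worms, against 3.45, 4.32, 3.78 and 3.22 CPM in EV + vehicle worms, nearly touching (0.53 ± 0.150, adjusted p = 0.0208). The call was lost without EV + vehicle replicate 1 or 4 or EV + P-80 replicate 1 or 4 (adjusted p up to 0.0771). Its neighbour *abf-6* did not pass (0.28 ± 0.123, adjusted p = 0.137).

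Of the 19 chitinase-like genes 11 averaged under 1 CPM. *chil-8* rose with P-80 in EV worms, at 2.33, 2.25, 1.99 and 3.05 CPM in EV + P-80 worms, against 0.977, 0.998, 0.953 and 1.43 CPM in EV + vehicle worms, without overlap (1.14 ± 0.216, adjusted p = 0.00159). That was the highest fold change of any member averaging at least 1 CPM in that comparison, it rested on 15 to 57 reads per library over all samples, and it held without any 1 library. In *ech-6* RNAi worms *chil-8* had 2.6, 1.71, 1.95 and 2.24 CPM with P-80, against 1.2, 1.52, 1.61 and 0.949 CPM with vehicle, and did not pass (0.69 ± 0.216, adjusted p = 0.0581). *chil-13* had 8.75, 8.81, 6.22 and 7.59 CPM in *ech-6* RNAi + vehicle worms, below the 11.2, 10.1, 11.7 and 10.2 CPM of EV + vehicle worms, and was called lower by a narrow margin (-0.47 ± 0.127, adjusted p = 0.0494). That call was lost without any 1 of 11 libraries, with adjusted p up to 0.161. The other 17 *chil* genes passed in no comparison, including *chil-10*, the most abundant, at 16.3, 16.1, 14.4 and 14.3 CPM in EV + P-80 worms, against 14.4, 13, 14.8 and 16.5 CPM in EV + vehicle worms.

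The 4 chitinase genes, which unlike the *chil* genes encode enzymes that digest chitin, held 3 called genes. *cht-3* rose with P-80 in EV worms (0.83 ± 0.114, adjusted p = 1.03e-04) and likewise under *ech-6* RNAi (0.52 ± 0.114, adjusted p = 0.00975), and with *ech-6* RNAi under vehicle (0.50 ± 0.114, adjusted p = 0.0214). *cht-2* fell with P-80 in EV worms (-1.22 ± 0.282, adjusted p = 0.00576) and likewise under *ech-6* RNAi (-1.24 ± 0.282, adjusted p = 0.012). *cht-4* fell in the same comparisons (-0.99 ± 0.237, adjusted p = 0.00737 and -0.80 ± 0.237, adjusted p = 0.0473), and *cht-1* did not pass. Without the library labelled *ech-6* RNAi + vehicle replicate 3, *cht-2* (adjusted p 0.0412) and *cht-3* (0.0338, and 0.0482 for *ech-6* RNAi under vehicle) kept their calls and *cht-4* (0.101) did not. The *cht-4* call under *ech-6* RNAi was lost without any 1 of 12 libraries, and the call of *cht-3* with *ech-6* RNAi was lost without EV + vehicle replicate 1 or 4 or *ech-6* RNAi + vehicle replicate 1 (adjusted p up to 0.0933).

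Regulators of these genes were tested as 3 lists. Of 19 genes of the epidermal and p38 pathway, 1 rose and 7 fell with P-80 in EV worms, where 6.97% of all genes rose and 9.14% fell. *sta-2*, the STAT-like factor that acts on *nlp-29* in the epidermis, rose (0.23 ± 0.0679, adjusted p = 0.0288). The adaptor gene *tir-1*, upstream of the p38 cascade, fell (-0.43 ± 0.0840, adjusted p = 0.00186), as did *vhp-1*, a phosphatase of stress kinases (-0.48 ± 0.0920, adjusted p = 0.00159), and the transcription factor gene *cebp-1* (-0.73 ± 0.124, adjusted p = 6.99e-04). The transcription factor genes *atf-7* and *skn-1*, the phospholipase gene *egl-8* and the protein kinase C gene *tpa-1* fell by smaller amounts, with log2 fold changes of -0.20, -0.18, -0.14 and -0.35. With P-80 under *ech-6* RNAi 0 rose and 3 fell (*vhp-1*, *skn-1* and *cebp-1*), where 2.63% of all genes rose and 4.58% fell. Without the library labelled *ech-6* RNAi + vehicle replicate 3 only *skn-1* did (adjusted p 0.0308), and *vhp-1* (0.117) and *cebp-1* (0.125) did not pass. In EV worms the calls of *sta-2* and *egl-8* were each lost without any 1 of 6 libraries (adjusted p up to 0.104 and 0.125), and without EV + vehicle replicate 4 those of *skn-1* and *tpa-1* were lost too. The kinase genes *nsy-1*, *sek-1* and *pmk-1* passed in no comparison. Of 11 genes of intestinal transcription factors and the insulin pathway, *hlh-30*, the TFEB homologue that controls lysosome genes, fell with P-80 in EV worms (-0.39 ± 0.0712, adjusted p = 0.0013) and likewise under *ech-6* RNAi (-0.33 ± 0.0712, adjusted p = 0.01), also without the library labelled *ech-6* RNAi + vehicle replicate 3 (adjusted p 0.0432). Of 9 genes of the DBL-1 pathway, upstream of *cnc-2*, only *sma-10* passed, and it rose with P-80 in EV worms (0.31 ± 0.0646, adjusted p = 0.00334). 0 regulators on these 3 lists passed in either comparison of *ech-6* RNAi with EV, where only 2.94% of all genes passed under vehicle and 0.699% under P-80.

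Markers of cell types were read in the same fit. With P-80 in EV worms 1 of 5 epidermis markers rose (*col-19*) and 4 fell (*dpy-7*, *rol-6*, *bli-1* and *lin-26*), of which *dpy-7*, *rol-6* and *bli-1* are also on the molting list. The fall of *lin-26*, an epidermal transcription factor gene, was -0.20 on the log2 scale (adjusted p 0.0388). That call was lost without any 1 of 5 libraries (adjusted p up to 0.13). The summed level of the 5 was 1594 to 1884 CPM in EV + P-80 worms and 1335 to 1501 CPM in EV + vehicle worms. Most of these sums was *col-19*, at 1452 to 1821 CPM in EV + P-80 worms and 1002 to 1276 CPM in EV + vehicle worms. The higher sum with P-80 is therefore that of *col-19* and not of the epidermis markers as a set. 2 of 6 neuron markers fell, 1 of 5 pharynx markers and 1 of 4 sperm markers rose, and 0 of 5 intestine, 3 muscle, 4 germline and 2 coelomocyte markers passed. Of all genes 16.1% passed in that comparison. The neuron calls (*unc-13* and *snb-1*) were lost without any 1 of 4 and 5 libraries (adjusted p up to 0.115 and 0.086). The pharynx call (*tni-4*) was lost without any 1 of 8 (adjusted p up to 0.156), and the sperm call (*msp-3*) held without any 1 library. With P-80 under *ech-6* RNAi 2 epidermis markers fell, and 2 muscle markers and 1 sperm marker rose, where 7.21% of all genes passed. Without the library labelled *ech-6* RNAi + vehicle replicate 3, 0 epidermis and 0 muscle markers passed and 1 sperm and 1 pharynx marker rose, where 3.56% of all genes passed. With *ech-6* RNAi under vehicle 1 epidermis marker rose and 1 neuron marker fell (not so without that library, adjusted p 0.0865), and under P-80 1 pharynx marker rose. Of all genes 2.94% and 0.699% passed in these 2 comparisons. The pharynx call under P-80 was lost without any 1 of 5 libraries (adjusted p up to 0.0981). The part of cell composition in the changes of the effector genes was not tested.

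The interaction, which asks whether P-80 acted differently in the RNAi backgrounds, passed for 0 of 90 members and for 0% of all genes. The smallest adjusted p among members was 0.758, and 12 members had an unadjusted limma p under 0.05, as did 5.91% of all genes. Among those averaging at least 1 CPM the largest interaction was that of *cnc-3*, 0.87 ± 0.321 (SE) on the log2 scale with a 95% interval of 0.20 to 1.55, its P-80 effect being -0.88 in *ech-6* RNAi worms and -1.75 in EV worms. *fipr-6* had the lowest at -0.58 ± 0.273, with an interval of -1.15 to -0.01. A gene called with P-80 in only 1 of the 2 backgrounds is therefore not shown to respond differently in the other.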

How the data were processed

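Total RNA of whole N2 worms was sequenced by the authors in 16 samples, whose groups come from the GEO labels. By the submitters' processing notes and the study's methods, the authors used Trimmomatic 0.32 for trimming, HISAT2 2.0.4 for alignment (WBcel235, Ensembl release 91) and HTSeq 0.6.1 for strand-specific counting. Genes stayed in the table where 4 or more samples exceeded 2 counts, and the authors scaled the libraries by TMM in edgeR. The authors deposited log2 CPM, although the column header says CPM. From them 100% of values came back as whole reads (within 0.1), which gave the totals of 15306307 to 28129104 reads per sample and the CPM printed here. The authors' precision weights are not part of the deposited values. With the default HTSeq parameters that the methods state, reads that match several places are not counted.

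The log2 values were fitted with lmFit and eBayes (trend = TRUE) of limma 3.58.1, in R 4.3.3 (two-sided tests, 1 mean per group, 16 samples, Benjamini-Hochberg over 19750 genes); all p-values printed are limma's. Log2 fold changes had a median standard error of 0.143 over all genes and of 0.132 over members averaging at least 1 CPM. The fit was tested on simulated data. Each sample is its own pool of worms; no label says whether pools of 1 group came from separate cultures, so p-values measure the spread between these samples. Named members are every member called in at least 1 of 5 comparisons, the 2 most abundant of each family, and the 3 highest and 3 lowest log2 fold changes of each comparison among members averaging at least 1 CPM, 45 in all. Of other genes, *ech-6* and the called genes of the regulator and chitinase lists are named. *nlp-28*, *nlp-29*, *spp-3*, *spp-14*, *fipr-8*, *fipr-9*, *fipr-23*, *cht-1*, *nsy-1*, *sek-1*, *pmk-1* and the molting, cuticle and marker genes fall outside this rule and were chosen after their values were seen. The members and the lists were chosen with earlier results of these data known. The alternatives tried were no trend, a robust prior, a filter at 1 CPM, quantile normalization, centring, log2(CPM + 1), only the groups compared, sample weights, voom weights on the recovered reads, a replicate block, and leaving out each library. Positions are from Ensembl release 115 of the same assembly. Python 3.11.15, pandas 2.3.3 and matplotlib 3.10.9 made tables and figures.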

Additional observations from a re-analysis of the deposited data

Results flagged for a closer look

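In 11 of 180 groups of 4 samples (45 named members in 4 groups), 1 sample stood apart from the other 3 by Dixon's test at the 95% level, where chance alone flags about 1 group in 20. All values are log2 CPM. In *ech-6* RNAi + P-80 worms, replicate 1 was high for *abf-5* (2.65, others 2.12 to 2.13) and *fip-2* (3.45, others 3.04 to 3.08), and replicate 3 was low for *fipr-22* (2.11, others 2.76 to 2.85). In *ech-6* RNAi + vehicle worms, replicate 1 was low for *fip-6* (2.01, others 2.47 to 2.53) and high for *fipr-21* (6.44, others 5.99 to 6.03). In EV + P-80 worms, replicate 1 was low for *fip-5* (2.20, others 2.44 to 2.48), replicate 2 for *spp-10* (7.21, others 7.29 to 7.30) and replicate 4 for *cnc-3* (-0.04, others 0.68 to 0.79). In EV + vehicle worms, replicate 1 was high for *spp-2* (3.39, others 2.81 to 2.88), replicate 4 was high for *chil-8* (0.53, others -0.05 to 0.01) and replicate 4 was low for *spp-23* (2.65, others 3.02 to 3.07). Of the calls that use one of these groups, those of *cnc-3*, *spp-2* and *chil-8* with P-80 in EV worms held without any 1 library. The call of *fip-6* with P-80 under *ech-6* RNAi did not hold without 6 of the libraries.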

How the results depend on the processing

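For P-80 in EV worms the count of called members (25) stayed within 1.5 times under every alternative, and was 19 to 29 when 1 library was left out. It was 19 in fits without EV + vehicle replicate 1, EV + vehicle replicate 4 or EV + P-80 replicate 4, which called 10.5%, 10% and 10.2% of all genes. It was 29 in fits without EV + P-80 replicate 3 or *ech-6* RNAi + vehicle replicate 1, which called 18.9% and 16.4%. With all libraries 16.1% of all genes were called. For P-80 under *ech-6* RNAi (12) it was 4 without the mean-variance trend, 22 after centring, 19 with sample quality weights, and 6 to 16 with 1 library left out. The first 3 of these settings called 2.27%, 9.06% and 10.1% of all genes, against 7.21% in the main fit. For *ech-6* RNAi under vehicle (12) it was 2 without the trend, 22 with sample weights and 2 to 15 with 1 library left out. Of all genes 1.12% were called without the trend and 5.18% with sample weights, against 2.94% in the main fit. For *ech-6* RNAi under P-80 (1) it was 1 to 3 with 1 library left out. The interaction had 0 calls throughout. The cause of these shifts was not tested. With the replicate block the counts were 28, 13, 12 and 2, in the same order, and 0 for the interaction. The shares of all genes called with the block were 16.1%, 7.4%, 2.77% and 0.841%. Under the block *cnc-3* (adjusted p 0.0621) and *nlp-34* (0.0625) lost their calls for *ech-6* RNAi under vehicle, and *lys-2* gained one under P-80 (0.0458). Same-numbered deviations from the group means correlated at -0.246 to 0.505, and 6 of 24 pairs exceeded 0.1. The highest value was that of replicate 3 between EV + P-80 and *ech-6* RNAi + P-80 worms. Differently numbered samples were not correlated for comparison, so whether replicate numbers pair the samples was not tested. Voom weights on the recovered reads gave 26, 13, 15, 1 and 0 calls, where 15.6%, 7.03%, 3.37%, 0.709% and 0.00506% of all genes were called. Over 63 results of named genes, some of which had not passed in the main fit, no value reversed under any alternative. Of 1631 values 161 no longer passed, 123 of them with 1 library left out and 21 without the trend. Another 10 values passed where the main fit had not. Only results called in the main fit could lose a call, and these were 25, 12, 12 and 1 in the 4 comparisons. Depth limits the members below 1 CPM: the median standard error was 0.176 over all 90 members, against 0.132 over those averaging at least 1 CPM.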
